A study of Mus musculus with 2 samples.

Results

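Cathepsins are the proteases that lysosomes use to take proteins apart, and 10 cathepsin genes (Ctsa, Ctsb, Ctsc, Ctsd, Ctse, Ctsh, Ctsk, Ctsl, Ctss and Ctsz) are described here in single leukocytes of the mouse liver. They were chosen by gene symbol, all 10 were found among the 31053 genes of the matrices, and each symbol named 1 gene. There were 2 libraries, both from C57BL/6 mice and both of sorted liver cells that carried CD45 and the integrin CD11b. RES came from mice whose liver fibrosis had resolved, and Ctrl came from uninjured control mice. The agent that caused the fibrosis, the time allowed for resolution and the age of the mice were not given in the sources used here. Cells of 5 mice went into each library as a pool, so there was 1 library in each group, no replicate check of any difference, and no test. Library and group cannot be told apart. All intervals below are at the 95% level and reflect counting error alone.

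Most members are cysteine proteases of the papain family, which are made as inactive proenzymes and activated in the acid of the endosome and lysosome. Ctsb, Ctsl, Ctss and Ctsk cut inside proteins, while Ctsc, Ctsh and Ctsz trim their ends. Ctsd and Ctse are aspartic proteases, and Ctsa is a serine carboxypeptidase that also protects other lysosomal enzymes. In phagocytes these enzymes digest engulfed cells and matrix, and in antigen-presenting cells they trim the invariant chain and prepare peptides for class II molecules.

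Transcripts were counted by their unique molecular identifiers (UMIs). RES held 34119806 UMIs in 4278 barcodes, and Ctrl held 20379164 UMIs in 3691 barcodes. After filtering there were 4011 RES cells with a median of 6357 UMIs and 3337 Ctrl cells with a median of 4512 UMIs. Cells were put into classes by marker gates that used no cathepsin gene, and each class had all genes of its own marker list detected in both libraries. Markers of other cells were also present in the macrophage classes. C1q macrophages held 4145 CPM of the 3 C1q genes in RES and 5581 CPM in Ctrl, beside 2022 CPM in RES and 1717 CPM in Ctrl of the 5 classical monocyte markers and 806 CPM in RES and 602 CPM in Ctrl of the 7 nonclassical monocyte markers. Their 5 Kupffer cell markers summed to 42.8 CPM in RES and 70.6 CPM in Ctrl, and their 5 neutrophil markers to 56.0 CPM in RES and 44.8 CPM in Ctrl. Arg1 macrophages held 1380 CPM in RES and 1267 CPM in Ctrl of the classical and 884 CPM in RES and 800 CPM in Ctrl of the nonclassical monocyte markers. Their NK cell markers summed to 45.2 CPM in RES and 220 CPM in Ctrl, their Kupffer cell markers to 16.9 CPM in RES and 150 CPM in Ctrl, where Cd5l was the one marker detected, and their neutrophil markers to 35.0 CPM in RES and 16.1 CPM in Ctrl. The part of these cells in the results below was not tested. A level below is the sum of a gene's UMIs in a class per 1000000 UMIs of that class (CPM), and a ratio is RES over Ctrl on the log2 scale.

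The libraries shared 56 cell barcodes, and 47 of these were kept in both. In all 47 the RES barcode held more UMIs than its Ctrl namesake. The sharing touched 1 class most. Of the 40 Ctrl cells in the gate for Arg1 macrophages, 28 carried a barcode that RES also held, and in the 25 pairs that passed that gate in both libraries the median was 30981 UMIs in RES and 627 UMIs in Ctrl. In an unsupervised clustering 27 of the 40 lay in a cluster that held cells of many classes. Its summed markers passed the NK gate, but by single cells it held 11 Ctrl and 6 RES NK cells. Of the 675 RES cells of the Arg1 gate, 656 lay in 1 cluster of Arg1 macrophages. Ctrl Arg1 macrophages without a shared barcode numbered 12. For this reason, and because 40 cells were under the minimum of 50, no ratio between RES and Ctrl was taken for Arg1 macrophages, and their values are given with and without these barcodes. In the 9 comparisons with a ratio, leaving out the shared barcodes moved none of the 69 member ratios outside its counting interval.

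The genes lie on 7 chromosomes of GRCm38, with positions from GENCODE M21. Ctss (chromosome 3, 95526786 to 95556403, plus strand) and Ctsk (chromosome 3, 95499256 to 95509362, plus strand) are neighbours with 17423 bp and no annotated gene between them. Ctsd lies on chromosome 7 at 142375911 to 142388038 on the minus strand, where the gene Gm49369 overlaps it on the same strand, so the split of reads between them is uncertain. Gm49369 had 0 UMIs in the kept cells of both libraries. Ctsl (chromosome 13, 64359337 to 64370890, minus strand) and Ctss each overlap a processed pseudogene on their own strand.

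Lysosomal genes are known for a motif, CACGTG, that the transcription factors Tfeb and Tfe3 bind. Windows from 250 bases before to 50 bases after a RefSeq start (GRCm38.p6) were taken from a RefSeq table that held 7 members, without Ctsb, Ctse and Ctsh. The motif, which reads the same on both strands, was found in the windows of 3 of these 7 members, Ctsa, Ctsd and Ctsl, and in those of 8.09% of all 27025 genes in the table. The 5 matches are shown with their flanks because Ctsd and Ctsl are the members on which the results below turn. Each runs 5′ to 3′ along the strand of its gene, with the motif in capitals.
Ctsa, chr2:164833749-164833778, plus strand: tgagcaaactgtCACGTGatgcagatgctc
Ctsa, chr2:164833766-164833795, plus strand: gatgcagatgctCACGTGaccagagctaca
Ctsd, chr7:142388048-142388077, minus strand: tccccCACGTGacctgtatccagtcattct
Ctsd, chr7:142387908-142387937, minus strand: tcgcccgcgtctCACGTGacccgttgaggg
Ctsl, chr13:64370739-64370768, minus strand: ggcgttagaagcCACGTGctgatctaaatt
The Ctsl window is set at a RefSeq start that lies 214 bases before the start that 4 of its 7 GENCODE transcripts share. A match describes letters in a window and says nothing of a bound factor.

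Across the 9 classes in the map of levels by class, which leaves out small classes such as migratory and plasmacytoid dendritic cells, the members fell into different patterns. Ctsb, Ctsl and Ctsk were highest in Arg1 macrophages in both libraries, and so was Ctsd, which was next highest in NK cells. Ctsc, Ctss, Ctsz and Ctsa had their highest values of these 9 in C1q macrophages in both libraries. The interval there overlapped that of the next class in both libraries for Ctsz and Ctsa and in RES for Ctss: Ctsz was 814 CPM in C1q and 813 CPM in Arg1 macrophages of RES, and 634 CPM in C1q and 628 CPM in Arg1 macrophages of Ctrl. Ctsh was highest in cDC2, the dendritic cells that present antigen to helper T cells, in RES and in C1q macrophages in Ctrl, and in neither library did the intervals of these 2 classes overlap. Ctse was highest in B cells, where it rested on few UMIs.

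**Figure D1:**
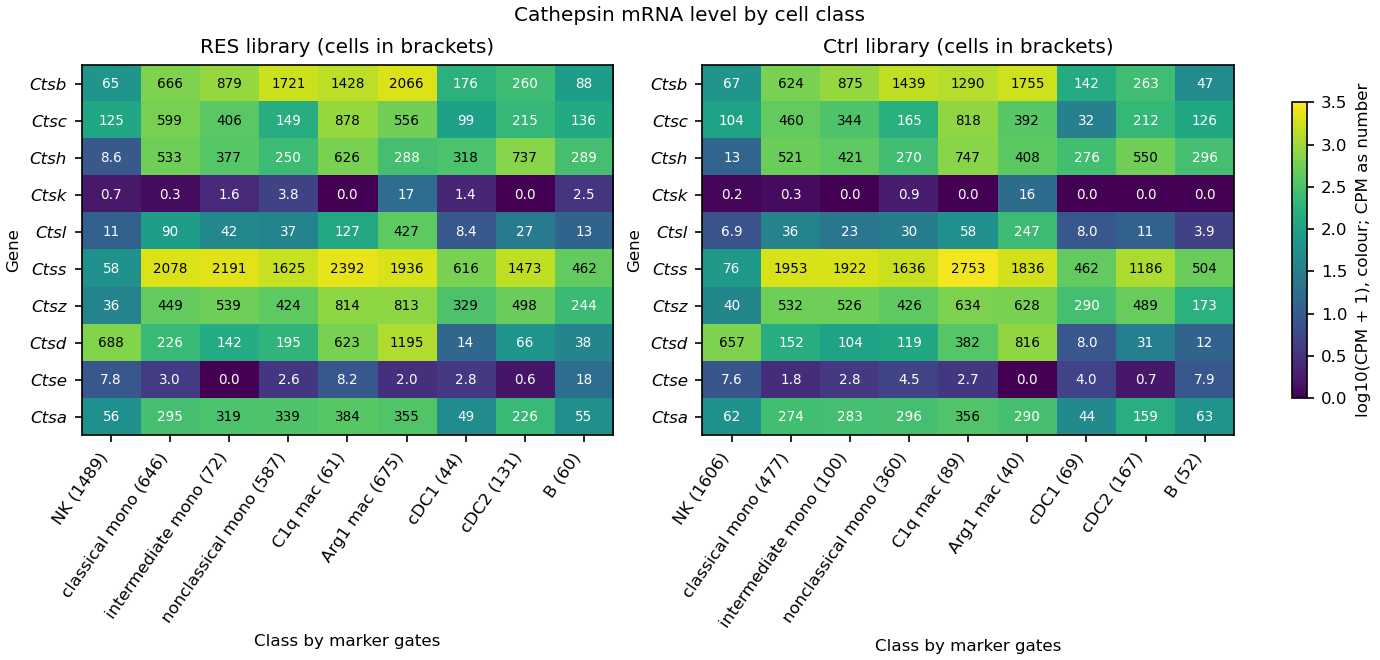
Level of each cathepsin (rows) in each class (columns) in the RES library (left) and the Ctrl library (right). Numbers are CPM, colour is log10(CPM + 1), and the number of cells stands in brackets; rows are to be read along a gene. Ctsd stood at 688 CPM in RES NK cells and 657 CPM in Ctrl NK cells, and Ctsl at 427 CPM in RES Arg1 macrophages.

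Ctsl, a broad endopeptidase, stepped down across the myeloid classes of RES. It stood at 427 CPM in RES Arg1 macrophages (413 to 441), 127 CPM in RES C1q macrophages, 90.4 CPM in RES classical monocytes and 37.1 CPM in RES nonclassical monocytes. The level in RES Arg1 macrophages was 3.36 times that of RES C1q macrophages and 4.72 times that of RES classical monocytes. In cDC1, cDC2, B cells and NK cells of RES it was between 8.38 and 26.9 CPM. Plasmacytoid dendritic cells, too few for a comparison at 8 RES and 17 Ctrl cells, held 1015 CPM of Ctsl in RES and 1024 CPM in Ctrl.

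The cells of a class were spread over the clusters in different proportions in the 2 libraries. Of the classical monocytes, 440 of 646 in RES and 216 of 477 in Ctrl lay in 1 cluster, 30 in RES and 106 in Ctrl in another, and 46 in RES and 5 in Ctrl in the cluster of Arg1 macrophages. Of the C1q macrophages, 20 of 61 in RES and 3 of 89 in Ctrl lay in the cluster of Arg1 macrophages, and 8 in RES and 31 in Ctrl in the cluster of C1q macrophages. Of the nonclassical monocytes, 534 of 587 in RES and 263 of 360 in Ctrl shared 1 cluster, as did 119 of 131 cDC2 in RES and 132 of 167 in Ctrl.

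Between the libraries, Ctsl had the higher value in RES in every monocyte and macrophage class with a ratio. The amounts differed, and the intervals of nonclassical and intermediate monocytes held 0. In classical monocytes, the cells recruited from blood, it was 90.4 CPM in RES and 36.3 CPM in Ctrl, a log2 ratio of 1.32 (1.05 to 1.59). In C1q macrophages it was 127 CPM in RES and 58.4 CPM in Ctrl (1.12, 0.56 to 1.69). In cDC2 it was 26.9 CPM in RES and 11.1 CPM in Ctrl (1.28, 0.43 to 2.20). These 3 intervals left out 0 and these 3 ratios were past 1.5-fold. With the clusters in place of the gates the ratio was 1.0 in classical monocytes and 0.48, under 1.5-fold, in cDC2, and C1q macrophages had too few cells for a value. In nonclassical monocytes, the patrolling subset, the ratio was 0.33 with an interval of -0.11 to 0.78, from 37.1 CPM in RES and 29.5 CPM in Ctrl. In intermediate monocytes it was 0.89, from 42.1 CPM in RES and 22.8 CPM in Ctrl, with an interval of -0.07 to 1.88 that held 0.

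Ctss, the cathepsin best known for trimming the invariant chain, differed little between the libraries. In C1q macrophages it was 2392 CPM in RES and 2753 CPM in Ctrl. In classical monocytes it was 2078 CPM in RES and 1953 CPM in Ctrl, and in nonclassical monocytes 1625 CPM in RES and 1636 CPM in Ctrl. Over the 7 classes with a ratio, its log2 ratios ran from -0.39 in NK cells to 0.31 in cDC2. NK cells also held UMIs of Lyz2, a lysozyme gene of myeloid cells that free RNA can carry into any droplet. If all of that Lyz2 came with myeloid RNA of the average kind, it would bring 31.1 CPM of the 57.9 CPM of Ctss in RES NK cells and 52.3 CPM of the 76.0 CPM in Ctrl NK cells. Dendritic cells and B cells had Ctss well above such a ceiling: cDC1 held 616 CPM in RES and 462 CPM in Ctrl, and B cells held 462 CPM in RES and 504 CPM in Ctrl.

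Ctsk, the collagen-cutting protease of osteoclasts, had 174 UMIs in all kept RES cells and 9 UMIs in all kept Ctrl cells. Of these, 157 in RES and 6 in Ctrl were in the pooled monocytes and macrophages, and 141 in RES and 3 in Ctrl were in Arg1 macrophages. The level there was 16.6 CPM in RES (14.0 to 19.6) and 16.1 CPM in Ctrl (3.32 to 47.1), the Ctrl value too imprecise to set beside the other.

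Ctsb, an endopeptidase that also clips dipeptides, separated the monocyte subsets. In RES it was 1721 CPM in nonclassical and 666 CPM in classical monocytes, and in Ctrl 1439 CPM in nonclassical and 624 CPM in classical monocytes, with intermediate monocytes between them in both libraries at 879 CPM in RES and 875 CPM in Ctrl. Arg1 macrophages had 2066 CPM in RES and 1755 CPM in Ctrl. Ctsb was far lower in cDC2, with 260 CPM in RES and 263 CPM in Ctrl. Within these classes RES and Ctrl lay close: the log2 ratio was 0.26 (0.20 to 0.32) in nonclassical monocytes, 0.15 (0.01 to 0.28) in C1q macrophages and 0.09 (0.02 to 0.17) in classical monocytes.

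Of the exopeptidases, Ctsc and Ctsh were higher in classical than in nonclassical monocytes. Ctsc, which activates serine proteases of granules by removing dipeptides, was 599 CPM in classical and 149 CPM in nonclassical monocytes of RES, and 460 CPM in classical and 165 CPM in nonclassical monocytes of Ctrl. Ctsh, an aminopeptidase, was 533 CPM in classical and 250 CPM in nonclassical monocytes of RES, and 521 CPM in classical and 270 CPM in nonclassical monocytes of Ctrl. Ctsz, a carboxypeptidase, hardly separated them, with 449 CPM in classical and 424 CPM in nonclassical monocytes of RES, and 532 CPM in classical and 426 CPM in nonclassical monocytes of Ctrl. In the 7 classes with a ratio these 3 genes stayed under 1.5-fold between the libraries wherever they reached 20 CPM. Their widest log2 ratios were 0.38 for Ctsc in classical monocytes (0.30 to 0.46), 0.42 for Ctsh in cDC2 (0.29 to 0.55) and 0.49 for Ctsz in B cells, whose interval of -0.04 to 1.04 held 0. In classes too small for a ratio they lay further apart: Ctsc was 99.1 CPM (77.4 to 125) in RES and 32.1 CPM (20.6 to 47.8) in Ctrl in cDC1, which had 44 RES cells, and 42.3 CPM (22.5 to 72.3) in RES and 150 CPM (112 to 198) in Ctrl in migratory dendritic cells.

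Ctsh, like Ctss and Ctsz, was well above its NK cell level in dendritic cells and B cells. In cDC2 it was 737 CPM in RES and 550 CPM in Ctrl, in cDC1 318 CPM in RES and 276 CPM in Ctrl, and in B cells 289 CPM in RES and 296 CPM in Ctrl. Migratory dendritic cells, with 32 RES and 46 Ctrl cells, had 1008 CPM of Ctsh in RES (899 to 1127) and 596 CPM in Ctrl (517 to 684), and plasmacytoid dendritic cells had 821 CPM in RES and 797 CPM in Ctrl. Ctsz was 498 CPM in RES and 489 CPM in Ctrl in cDC2, 244 CPM in RES and 173 CPM in Ctrl in B cells, and 36.1 CPM in RES and 39.8 CPM in Ctrl in NK cells. For Ctsh, NK cells had 8.59 CPM in RES and 12.7 CPM in Ctrl, of which the Lyz2 ceiling for free RNA covers 70.2% in RES and 97.9% in Ctrl.

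Ctsd, the main aspartic protease of lysosomes, had NK cells next after Arg1 macrophages in both libraries, and in RES the intervals of NK cells and C1q macrophages overlapped. It was 688 CPM in RES NK cells (668 to 708) and 657 CPM in Ctrl NK cells (636 to 678), a log2 ratio of 0.07 (0.00 to 0.13). The Lyz2 ceiling for free RNA covers 1.48% of that level in RES and 0.726% in Ctrl. Classical monocytes had less than NK cells, with 226 CPM in RES and 152 CPM in Ctrl, and cDC1 had 14.0 CPM in RES and 8.03 CPM in Ctrl, near or under the ceiling for free RNA (24.9 CPM in RES and 6.26 CPM in Ctrl). Arg1 macrophages had the most, 1195 CPM in RES and 816 CPM in Ctrl.

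Between the libraries Ctsd was higher in RES in each of the 7 classes with a ratio, by amounts from 0.07 to 1.67 on the log2 scale. In C1q macrophages, whose RES cells lay more often in the cluster of Arg1 macrophages, it was 623 CPM in RES and 382 CPM in Ctrl, a log2 ratio of 0.71 (0.48 to 0.93). In nonclassical monocytes it was 195 CPM in RES and 119 CPM in Ctrl (0.71, 0.50 to 0.92). In classical monocytes, where it was 226 CPM in RES and 152 CPM in Ctrl, the ratio of 0.57 (0.43 to 0.71) fell just short of 1.5-fold. In cDC2 it was 65.7 CPM in RES and 31.1 CPM in Ctrl (1.08, 0.57 to 1.61). In B cells it was 37.7 CPM in RES and 11.8 CPM in Ctrl, and the interval of -0.15 to 4.10 held 0.

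**Figure D2:**
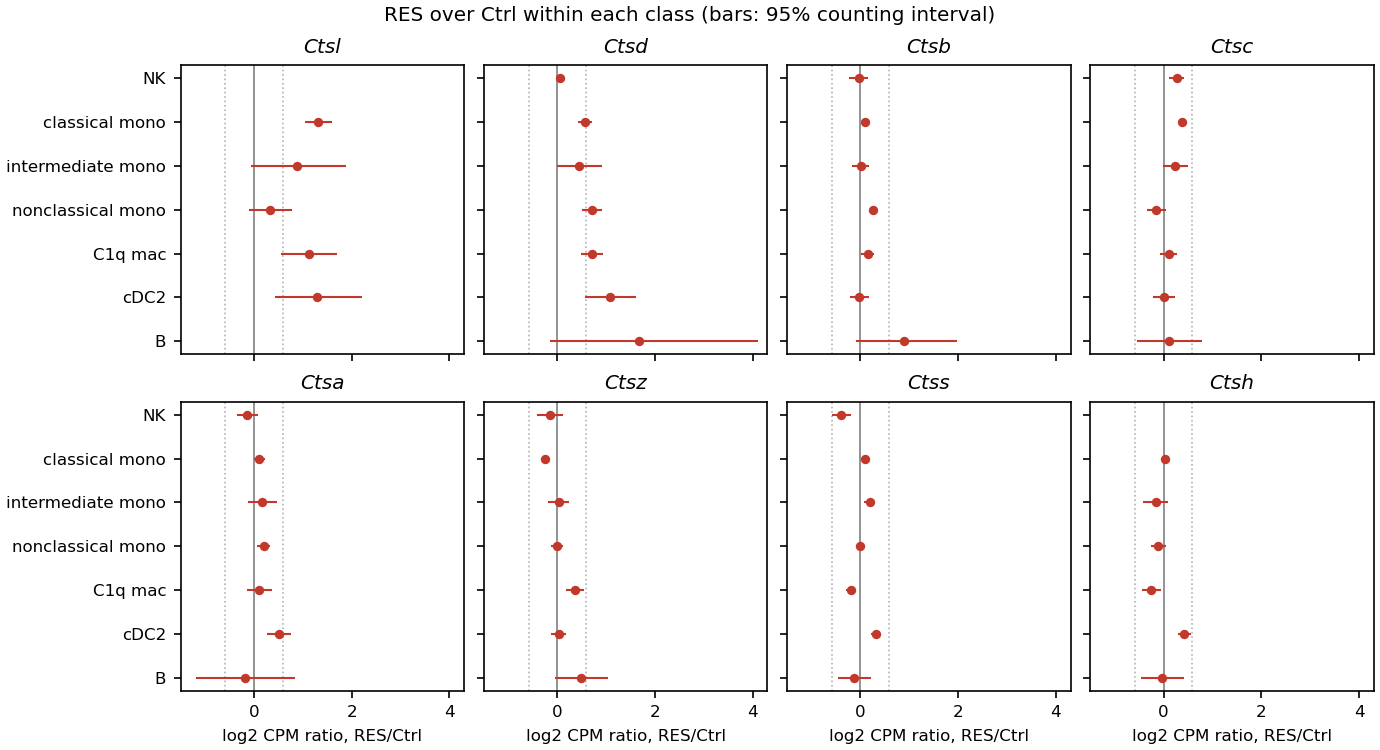
Log2 ratio of CPM, RES over Ctrl, for 8 cathepsins in the 7 classes with at least 50 cells in each library. Points are ratios, bars are 95% counting intervals and dotted lines mark 1.5-fold; a member under 20 CPM in both libraries of a class has no point. Ctsd lay right of 0 in every class and Ctsl in every class with a point, while Ctss and Ctsh lay on both sides of 0.

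Ctse, the aspartic protease of endosomes, was near the limit of detection. It had 132 UMIs in all kept RES cells and 81 UMIs in all kept Ctrl cells. B cells had 17.6 CPM in RES and 7.88 CPM in Ctrl, and NK cells had 7.85 CPM in RES and 7.60 CPM in Ctrl. No class reached 20 CPM. Ctsa, the serine carboxypeptidase, varied little among macrophages and monocytes: in the 5 monocyte and macrophage classes it ran from 295 to 384 CPM in RES and from 274 to 356 CPM in Ctrl. In cDC2 it was 226 CPM in RES and 159 CPM in Ctrl, a log2 ratio of 0.51 (0.27 to 0.75), and in NK cells 56.3 CPM in RES and 62.0 CPM in Ctrl.

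Counted over the family in the 7 classes with a ratio, differences of 1.5-fold or more in members that reached 20 CPM in either library were all toward RES. In classical monocytes 1 of 8 members was higher (Ctsl) and 0 lower, where 4.11% of all 5765 genes at that floor were higher and 4.08% lower. In nonclassical monocytes 1 of 8 was higher (Ctsd) and 0 lower, where 5.15% of genes were higher and 2.61% lower. In intermediate monocytes 1 of 8 was higher (Ctsl) and 0 lower, where 11.2% of genes were higher and 9.43% lower. C1q macrophages had 2 of 8 higher (Ctsd and Ctsl) and 0 lower, where 12.4% of genes were higher and 14.3% lower. In cDC2 the count was the same 2 members higher and 0 lower, where 7.35% of genes were higher and 7.72% lower. In B cells 2 of 7 were higher (Ctsb and Ctsd) and 0 lower, where 22.6% of genes were higher and 15.7% lower. In NK cells 0 of 6 were higher and 0 lower, where 0.79% of genes were higher and 0.924% lower. Counts of 1 or 2 members are too few to be set apart from these shares. The members' median log2 ratio in a class lay between -0.09 (NK cells) and 0.37 (cDC2), while that of all genes at the floor lay between -0.03 (NK cells) and 0.09 (B cells).

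Cells with RNA of Arg1 or Spp1, the 2 genes of the Arg1 macrophage gate, moved with some of these differences. Of the 8 mapped classes outside the Arg1 gate, C1q macrophages held 143 CPM of Arg1 in RES and the others between 15.4 CPM (cDC1) and 25.7 CPM (cDC2) in RES, while in Ctrl these 8 held between 0 and 2.53 CPM. A small class of B cells with myeloid RNA held 3393 CPM of Arg1 and Spp1 together in RES and 219 CPM in Ctrl. If that Arg1 came with average RNA of RES Arg1 macrophages, it would bring 3.75 CPM of Ctsd and 1.34 CPM of Ctsl into RES classical monocytes, where RES exceeded Ctrl by 73.7 CPM of Ctsd and 54.1 CPM of Ctsl. In C1q macrophages it would bring 22.0 CPM of Ctsd and 7.86 CPM of Ctsl, where RES exceeded Ctrl by 241 CPM of Ctsd and 68.5 CPM of Ctsl. The Arg1 gate took precedence over the C1q, monocyte and cDC2 gates, and NK, B and cDC1 cells past it were put in other classes. The Arg1 left in all 8 classes, classical monocytes among them, was therefore limited by the gates themselves. Whether RNA of Arg1 macrophages had a part in these differences of Ctsd and Ctsl was not tested. With every cell that held an Arg1 or Spp1 UMI left out, an alternative chosen after the data were seen, Ctsl had a log2 ratio of 1.33 in classical monocytes, 0.95 in C1q macrophages and 0.87 in cDC2, but 0.49, under 1.5-fold, in intermediate monocytes. Ctsd was then at 0.67 in nonclassical and 0.68 in classical monocytes, but at 0.24 in C1q macrophages and 0.52 in cDC2, both under 1.5-fold. This removed 26 of 61 C1q macrophages and 41 of 131 cDC2 in RES, and 5 of 89 C1q macrophages and 7 of 167 cDC2 in Ctrl.

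Sums over many classes gave other ratios than single classes. Over all kept cells Ctsl was 154 CPM in RES and 32.2 CPM in Ctrl (log2 ratio 2.26, 2.14 to 2.39). Ctsb was 1008 CPM in RES and 512 CPM in Ctrl (0.98, 0.94 to 1.01), and Ctsd was 582 CPM in RES and 305 CPM in Ctrl (0.93, 0.89 to 0.97). These were the 3 of 8 members that were 1.5-fold or more higher, with 0 lower, where 6.04% of 6224 genes were higher and 3.65% lower. In the pooled monocytes and macrophages the same 3 of 8 were higher and 0 lower, where 7.39% of 5968 genes were higher and 4.59% lower. There Ctsl was 223 CPM in RES and 40.3 CPM in Ctrl (2.47, 2.30 to 2.64), and Ctsd was 640 CPM in RES and 176 CPM in Ctrl (1.86, 1.78 to 1.94). Ctsb, at 1469 CPM in RES and 976 CPM in Ctrl, lay at the edge of 1.5-fold (0.59, 0.55 to 0.63). Ctss was 1953 CPM in RES and 1931 CPM in Ctrl, a log2 ratio of 0.02.

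The class mix differed between the libraries at the same time. Arg1 macrophages gave 26.6% of the UMIs of kept cells in RES and 0.98% in Ctrl, and NK cells gave 21.2% in RES and 31.2% in Ctrl. Giving each library the class mix of the other while keeping its levels within classes split each whole-library difference into a part from mix and a part from levels, each averaged over both exchanges. For Ctsb, 378 of 495 CPM went with the mix and 117 CPM with the levels. For Ctss, 271 of 346 CPM went with the mix and 74.9 CPM with the levels. For Ctsd the parts were closer, 155 CPM from the mix and 122 CPM from the levels, as they were for Ctsl, with 74.4 CPM from the mix and 47.8 CPM from the levels. The Ctrl levels of Arg1 macrophages in this split came from 40 cells, 28 of them with shared barcodes. Leaving out cells with an Arg1 or Spp1 UMI brought the log2 ratio in pooled monocytes and macrophages to 1.0 for Ctsl, 0.49 for Ctsd and 0.10 for Ctsb, and over all kept cells to 0.63 for Ctsl, 0.23 for Ctsd and 0.20 for Ctsb. This removed 1025 of 2041 RES and 68 of 1066 Ctrl cells of the pooled class, every Arg1 macrophage among them. Over all kept cells it removed 1440 of 4011 in RES and 145 of 3337 in Ctrl. Deeper cells are more often removed by such a rule.

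**Figure D3:**
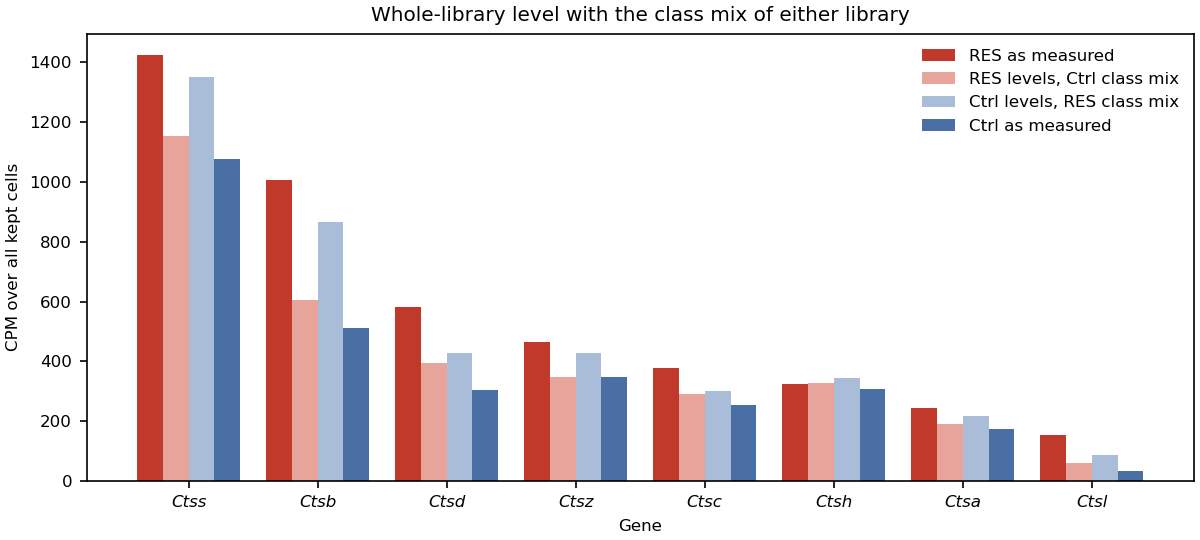
Level over all kept cells (CPM, vertical axis from 0) for 8 cathepsins: RES as measured, RES levels with the Ctrl class mix, Ctrl levels with the RES class mix, and Ctrl as measured. For Ctsb the values as measured were 1008 CPM in RES and 512 CPM in Ctrl, and with the mixes exchanged they were 605 CPM for RES levels and 866 CPM for Ctrl levels.

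Arg1 macrophages were a RES class in number, with 675 RES cells and 40 Ctrl cells. Without the shared barcodes, 644 RES cells and 12 Ctrl cells remained. In those, Ctsb was 2086 CPM in RES and 1765 CPM in Ctrl, and Ctss was 1955 CPM in RES and 1854 CPM in Ctrl. Ctsd was 1237 CPM (1212 to 1262) in RES and 838 CPM (705 to 988) in Ctrl, and Ctsl was 442 CPM (427 to 457) in RES and 238 CPM (170 to 324) in Ctrl. Ctsh was 290 CPM in RES and 416 CPM in Ctrl. The Ctrl values rest on 168277 UMIs in 12 cells and are given as a description.

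Within the RES Arg1 macrophages, cells with more Arg1, the arginase gene, and Spp1, the osteopontin gene, held more Ctsl. Ctsl was 239 CPM in the 224 cells with the least of both, 385 CPM in the 226 cells between and 680 CPM in the 225 cells with the most. The log2 ratio of the most to the least was 1.51 (1.38 to 1.63). For Ctsd it was 0.55 (0.48 to 0.62), from 1424 and 972 CPM, and for Ctsb it was 0.49 (0.44 to 0.55), from 2420 and 1719 CPM. Ctsh ran the other way, with 257 CPM in the cells with the most and 319 CPM in the cells with the least (-0.31, -0.45 to -0.17). Ctss (0.03) and Ctsc (0.02) lay level between the extremes, but both were lower in the 226 cells between. From the least to the most, Ctss was 1987, 1795 and 2026 CPM and Ctsc 578, 502 and 587 CPM. Depth differed little, with a median of 11468 UMIs in the cells with the most and 12153 UMIs in those with the least. Split instead by the C1q genes, the 254 cells that also passed the C1q gate and the 421 cells that did not lay close: Ctsl was 429 and 425 CPM, Ctsd 1185 and 1201 CPM, and Ctsb 2147 and 2013 CPM. These are cells of 1 library and no replicates of a condition.

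**Figure D4:**
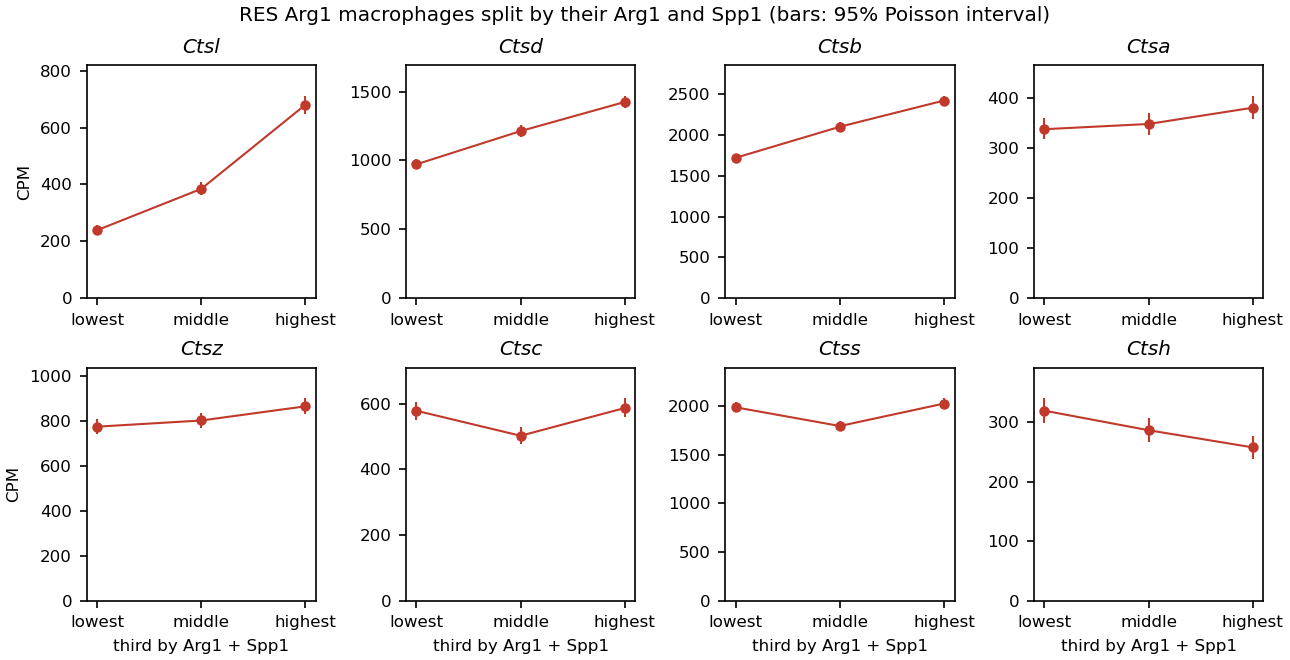
Level of 8 cathepsins (CPM, each vertical axis from 0) in RES Arg1 macrophages, divided into 3 groups of cells by their Arg1 and Spp1 UMIs per 10000. Points are CPM and bars 95% Poisson intervals. Ctsl climbed from 239 to 680 CPM over the groups, and Ctsh fell from 319 to 257 CPM.

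Shares of cells with a UMI were compared at matched depth. After each cell was thinned to 1000 UMIs, Ctsd was seen in 49.1% of RES NK cells (46.5 to 51.7) and 47.4% of Ctrl NK cells (44.9 to 49.9, exact Clopper-Pearson intervals). It was seen in 18.9% of RES and 10.2% of Ctrl classical monocytes, and in 37.3% of RES (25.0 to 50.8) and 18.1% of Ctrl (10.5 to 28.1) C1q macrophages. In cDC1, the class taken as background for Ctsd, it was seen in 2.33% of RES cells and in 0 of 65 Ctrl cells, which allows a share of up to 4.62%. Median depths before thinning were 15810 UMIs in RES cDC1 and 11282 UMIs in Ctrl cDC1. Ctsl was seen in 29.6% of RES Arg1 macrophages (26.1 to 33.2), in 7.29% of RES and 3.18% of Ctrl classical monocytes, and in 1.55% of RES and 0.888% of Ctrl NK cells, which served as its background and had median depths of 4084 UMIs in RES and 3371 UMIs in Ctrl. Without thinning, Ctsl was seen in 47.2% of RES and 22.6% of Ctrl classical monocytes and in 4.77% of RES and 2.55% of Ctrl NK cells, and Ctsd in 92.6% of RES and 86.3% of Ctrl NK cells.

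**Figure D5:**
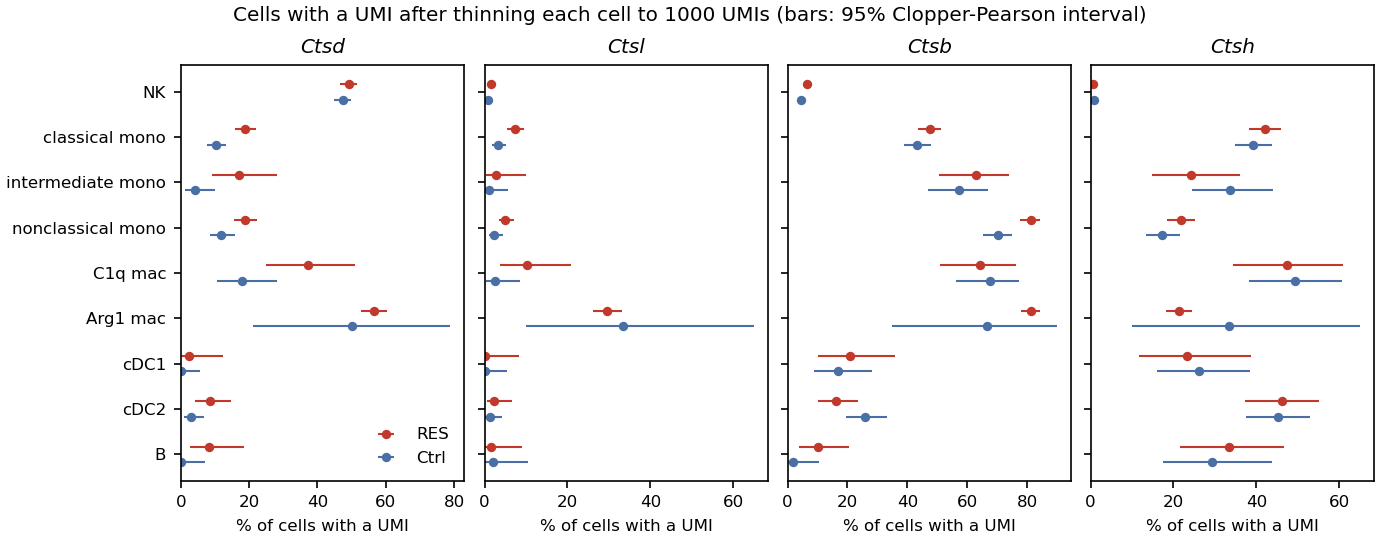
Share of cells with at least 1 UMI of Ctsd, Ctsl, Ctsb or Ctsh after thinning every cell to 1000 UMIs, by class, RES (red) above Ctrl (blue). Points are shares and bars 95% Clopper-Pearson intervals; the Ctrl Arg1 macrophages are 12 cells, since 28 were too shallow. Ctsd was seen in 49.1% of RES NK cells and 47.4% of Ctrl NK cells.

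The genes around the cathepsins differed among themselves between the libraries. In the pooled monocytes and macrophages, 1 of 12 genes of lysosomal sorting and acidification that reached the floor was higher in RES and 0 lower. Of all genes at the floor there, 7.39% were higher and 4.59% lower. The median log2 ratio of the 12 was 0.32 against 0.04 for all genes at the floor. The 1 higher gene was Igf2r, the receptor that carries mannose-6-phosphate enzymes to the endosome, at 21.7 CPM in RES and 5.09 CPM in Ctrl. Atp6v0d1, a subunit of the proton pump, was 124 CPM in RES and 86.6 CPM in Ctrl, and Psap, the precursor of the saposins, was 2782 CPM in RES and 3187 CPM in Ctrl, both under 1.5-fold. Gnptab, which builds the mannose-6-phosphate tag, was 32.8 CPM in RES and 34.6 CPM in Ctrl. Counts in single classes differed. In intermediate monocytes 2 of 11 were higher (11.2% of all genes) and in nonclassical monocytes 2 of 12 (5.15%). In C1q macrophages 1 of 12 was higher (12.4%). In B cells 1 of 8 was higher (22.6%) and 1 lower (15.7%), with a median of -0.16. In classical monocytes and NK cells 0 of 11 were past 1.5-fold, and in cDC2 0 of 9.

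Of the inhibitors, 2 of 3 at the floor in the pooled class were higher in RES and 0 lower, with a median log2 ratio of 1.20. Of all genes there, 7.39% were higher and 4.59% lower. Cstb, a cystatin of the cytosol that blocks papain-like cathepsins, was 556 CPM in RES and 224 CPM in Ctrl (1.31, 1.24 to 1.38). Serpinb6a, an intracellular serpin, was 49.3 CPM in RES and 21.5 CPM in Ctrl. Cst3, the secreted cystatin C, was 2059 CPM in RES and 3018 CPM in Ctrl (-0.55), just under 1.5-fold. Within classical monocytes Cstb was 296 CPM in RES and 276 CPM in Ctrl (0.10), under 1.5-fold in that class. Of the inhibitors at the floor, 1 of 3 was higher in classical (4.11% of all genes) and in nonclassical monocytes (5.15%). The count was also 1 of 3 in C1q macrophages (12.4%) and B cells (22.6%), and 1 of 4 in cDC2 (7.35%). In NK cells 0 of 4 and in intermediate monocytes 0 of 2 were higher. None was lower in any of these classes. Of the other lysosomal cysteine proteases 2 reached the floor. Lgmn, the legumain that processes several cathepsins, was 328 CPM in RES and 140 CPM in Ctrl (1.23, 1.13 to 1.32), and Ctso was 22.6 CPM in RES and 27.0 CPM in Ctrl. These are values of the pooled class. Within classical monocytes, nonclassical monocytes, C1q macrophages and NK cells, 2 genes of this list reached the floor, with 0 higher and 0 lower. In intermediate monocytes, cDC2 and B cells 1 of 2 was higher, where 11.2%, 7.35% and 22.6% of genes were higher.

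Among the transcription factors of lysosomal genes, 1 of 3 at the floor in the pooled class was higher and 0 lower. Of all genes there, 7.39% were higher and 4.59% lower. The factors had a median log2 ratio of 0.27. Mitf was 44.0 CPM in RES and 16.7 CPM in Ctrl (1.40, 1.13 to 1.68). Tfe3 was 67.5 CPM in RES and 56.1 CPM in Ctrl, and Tfeb was 40.8 CPM in RES and 57.0 CPM in Ctrl, both under 1.5-fold. Single classes gave other counts. In C1q macrophages all 4 listed factors reached the floor, with 0 higher, 2 lower and a median of -0.36, where 14.3% of genes were lower. Of 2 at the floor, 1 was lower in cDC2 (7.72% of genes lower) and in B cells (15.7%), with 0 higher. In NK cells and each monocyte class 2 reached the floor, with 0 higher and 0 lower.

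Genes of the class II pathway, in which cathepsins trim the invariant chain and prepare peptides, went the other way from Ctsl and Ctsd. All 6 listed genes (Cd74, H2-Aa, H2-Ab1, H2-Eb1, H2-DMa and H2-DMb1) were 1.5-fold or more lower in RES in the pooled monocytes and macrophages, with a median log2 ratio of -0.94. Of all genes at the floor there, 4.59% were lower. Cd74, the invariant chain that Ctss trims, was 3449 CPM in RES and 6384 CPM in Ctrl. H2-Aa was 1229 CPM in RES and 2242 CPM in Ctrl, H2-Eb1 was 781 CPM in RES and 1611 CPM in Ctrl, and H2-DMa was 186 CPM in RES and 380 CPM in Ctrl. All 6 were also lower within classical monocytes (median -1.09), where 4.08% of genes were lower, and within nonclassical monocytes (median -1.02), where 2.61% were. In intermediate monocytes 1 of 6 was lower, where 9.43% of genes were. None was past 1.5-fold in C1q macrophages, cDC2 or B cells. In NK cells 5 of the 6 reached the floor and all 5 were lower, where 0.924% of genes were lower. Cd74, for example, had 68.0 CPM in RES NK cells and 301 CPM in Ctrl NK cells. Lyz2, which marks free RNA of myeloid cells there, was also lower in NK cells, at 152 CPM in RES and 334 CPM in Ctrl, and its part in that result was not tested.

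Over 14 profiles (7 classes in each of the 2 libraries), the members were set against 4860 other genes by the correlation of log2(CPM + 10). The profiles share libraries and depth, and the correlations are descriptions. Ctss and Ctsz had patterns close to each other (r = 0.984), and the genes most like Ctss were Ifngr2 (0.988), a chain of the interferon gamma receptor, Pld4 (0.981) and Irf5 (0.980). Ctsa and Ctsb were close to each other (0.963), with Lrp1 (0.986) most like Ctsa and Lpcat2 (0.980) and Adgre1 (0.980), the F4/80 gene, most like Ctsb. Ctsh was most like Plekho1 (0.992), Ctsc was most like Cd93 (0.978), and Ctsl was most like Cd14 (0.967), the coreceptor for bacterial lipopolysaccharide. Ctsd stood apart, with its best likeness at 0.925 (Fkbp1a) and negative correlations with Ctsh (-0.45), Ctsz (-0.25) and Ctss (-0.21). Ctse and Ctsk stayed under the level needed for such a profile.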

How the data were processed

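The authors deposited UMI counts of genes in single barcodes, as whole numbers that nothing had scaled. Per the file headers they come from Cell Ranger 3.1.0, and per the submitters' processing notes bcl2fastq and Cell Ranger were used with the mm10 build. Which gene models were counted is not given in the sources used here. Per the labels' protocols, liver mononuclear cells from a Histopaque gradient were pooled from 5 mice, sorted for CD45 and CD11b and made into droplet libraries of transcript 3′ ends.

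Barcodes under 200 genes or over 10% mitochondrial UMIs were dropped (121 in RES and 245 in Ctrl), and the highest Scrublet scores were left out as doublets at 0.8% per 1000 barcodes (146 RES and 109 Ctrl barcodes). Classes were cells with at least a set number of marker UMIs per 10000: 20 for NK, 15 for B, 8 for cDC1, 6 for cDC2, 10 for C1q and for Arg1 macrophages, 10 for classical and 15 for nonclassical monocytes, with cells past both as intermediate monocytes. The Arg1 gate took precedence over the C1q, monocyte and cDC2 gates, and NK, B and cDC1 cells past it were put in other classes. B cells with 20 or more UMIs of Lyz2, Fcer1g and Tyrobp per 10000 were set apart as B cells with myeloid RNA. These gates are rebuilt classes and no authors' annotation was used. Members, lists, markers and gates were chosen with earlier results of these data known.

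UMIs were summed per library and class. A ratio needs 50 cells in each library and has an exact conditional binomial interval, a level an exact Poisson interval. A member counts as higher or lower at 1.5-fold with at least 20 CPM in either library. A sum of 0 allows up to 3 counts. The functions were tested on simulated counts of classical monocytes: 95.1% of the intervals over 5638 genes held the true ratio. These counts were drawn from the Poisson model that the intervals assume, without variation among cells, mice or libraries. The result therefore checks the calculation alone. Named genes were all members, from each list up to 4 genes with the 2 highest and 2 lowest ratios in the pooled monocytes and macrophages, and for each member the most alike genes. Tools were Python 3.11.15, scanpy 1.11.5, scipy 1.17.1 and, for TMM scaling, edgeR 4.0.16.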

Additional observations from a re-analysis of the deposited data

How the results depend on the processing

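Of 69 member ratios in 9 comparisons, none that was past 1.5-fold changed sign under 10 alternatives: every deposited barcode, doublets kept, TMM scaling, equal weight per cell, thinning, doubled gates, Leiden clusters, no floor, and leaving out cells with an Arg1 or Spp1 UMI or shared barcodes (the last 2 chosen after the data were seen). Ratios left their counting intervals more often. Thinning to 1000 UMIs moved 33 of the 69 outside, and leaving out cells with an Arg1 or Spp1 UMI moved 17. Equal weight per cell moved 15 and TMM scaling 9. With the clusters 16 moved and 37 did not, and with doubled gates 14 moved and 47 did not. The other 4 alternatives moved none. TMM scaling, the clusters and leaving out shared barcodes moved no count of members called by over 1.5 times. Without cells with an Arg1 or Spp1 UMI, the count higher was 1 in place of 3 over all kept cells and over pooled monocytes and macrophages, 1 in C1q macrophages and in cDC2, 0 in intermediate and 2 in classical monocytes. With no floor it was 2 in NK cells and in classical, intermediate and nonclassical monocytes and 4 in B cells, with 1 lower in intermediate and nonclassical monocytes and in B cells. After thinning it was 2 in those 3 monocyte classes, with 1 lower in intermediate monocytes, cDC2 and B cells. Doubled gates gave 0 higher in nonclassical monocytes and 1 lower in C1q macrophages, equal weight per cell gave 4 higher in B cells, and every deposited barcode, as well as keeping doublets, gave 2 higher in intermediate monocytes and 1 lower in NK cells. The causes were not tested, beyond fewer cells or a lower floor. Across these alternatives Ctsl ran from 1.0 to 1.33 in classical monocytes and from 1.0 to 2.71 in the pooled class, Ctsd from 0.58 to 0.86 in nonclassical monocytes and from 0.24 to 1.20 in C1q macrophages, and Ctsb from 0.10 to 0.64 in the pooled class, past 1.5-fold in 3 of 10. Over all kept cells Ctsd was under 1.5-fold after thinning (0.49), with equal weight per cell (0.46) and without cells with an Arg1 or Spp1 UMI (0.23), and the last of these gave 0.63 for Ctsl and 0.20 for Ctsb. Ctsl in cDC2 was under 1.5-fold in the clusters (0.48), where Ctsc passed it (0.61), and in intermediate monocytes without cells with an Arg1 or Spp1 UMI (0.49). With equal weight per cell Ctsz was highest in Arg1 macrophages in both libraries, and no other member changed its highest class of the 9. Intermediate monocytes had under 30 cells with doubled gates and in the clusters, and C1q macrophages in the clusters, and gave no value there. Of 180 shares of cells with a UMI, 107 lay outside their interval when thinned to 2000 UMIs and 145 without thinning, since deeper cells show more genes. No paired analysis was possible because each group was 1 library, and no library could be left out.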
